A study of Mus musculus with 12 samples.

Results

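MEIS1 with its homeodomain was compared with MEIS1 that lacks it, in mouse bone marrow cultures transformed by NUP98-HOXD13. The comparison used 6 of the 12 arrays of the series, the 3 of cultures given full-length MEIS1 (MEIS1-WT) and the 3 of cultures given the deletion form (MEIS1-deltaHD), as the sample titles assign them. Expression was read on Affymetrix mouse arrays of 45101 probe sets, which measure the RNA of most mouse genes at once. All groups shared the same start. Marrow of (C57Bl/6Ly-Pep3b x C3H/HeJ) F1 mice treated with 5-fluorouracil (5-FU), a drug that spares stem and early progenitor cells, received a retrovirus for NUP98-HOXD13, a leukaemia fusion of a nucleoporin and a homeobox protein, and was held in liquid culture over 4 weeks. The cells grew with 15% fetal bovine serum and 3 cytokines: stem cell factor (mouse, 100 ng/ml), IL-6 (human, 10 ng/ml) and IL-3 (mouse, 6 ng/ml). For the second retrovirus, MEIS1-WT, MEIS1-deltaHD or the control vector MIY, which carries yellow fluorescent protein, the cells were co-cultured for 2 days with irradiated E86 producer cells. A further group carried M33-MEIS1, about which the labels say no more. The control and M33-MEIS1 groups, with 3 arrays each, carried NUP98-HOXD13 as well, and their levels are given beside the comparison.

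The series record calls the 3 arrays of a condition independent experiments, and the cells were cultured lines under retroviral overexpression, not animals with leukaemia. Ages and sexes of the mice, the gate of the sort before RNA extraction, the time between infection and extraction and the exact residues deleted are all not given in these sources. RNA came from bulk cultures, so fewer cells of a type and less RNA per cell cannot be told apart.

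MEIS1 is a transcription factor of the TALE homeodomain class. Its homeodomain contacts DNA, and a separate region near its start binds PBX proteins, which in turn pair with HOX proteins on DNA. It is expressed in blood stem and progenitor cells, falls as they mature, and speeds leukaemia together with HOX genes or NUP98 fusions, including NUP98-HOXD13. Comparing the form with and without the homeodomain asks which expression differences go with the DNA-binding part of the protein.

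The arrays of the 2 groups were separated on the first principal component of the 6, which held 38% of the variance and placed MEIS1-WT arrays between -22.77 and -17.57 and MEIS1-deltaHD arrays between 15.84 and 22.33. Across genes, arrays correlated at 0.9855 to 0.9866 within MEIS1-WT, at 0.9884 to 0.9893 within MEIS1-deltaHD and at 0.98 to 0.9838 between them. The genes are not independent replicates in these correlations. Every array had been scaled to a trimmed mean of 100, yet the median signal was 14.27 to 15.31 with MEIS1-WT and 13.12 to 13.9 with MEIS1-deltaHD. For actin, the ratio of 3' to 5' probe signal, a measure of RNA integrity and labelling, was 1.442 to 1.481 against 1.3 to 1.404. The groups did not overlap on either measure. On the same ratio for Gapdh they did overlap, at 0.8221 to 0.8376 with MEIS1-WT and 0.8112 to 0.8281 with MEIS1-deltaHD. The part of the actin ratio in the results was not tested. Markers of the labelled tissue were present: myeloperoxidase (Mpo), made by granulocyte progenitors, read 5578, 5169 and 5211 with MEIS1-WT and 6563, 6867 and 7099 with MEIS1-deltaHD, and the progenitor marker Cd34 read 795, 838 and 805 and 791, 832 and 809.6. The 9 measured fibroblast genes, fixed as markers of the E86 cells, summed to a signal of 227 to 270 with MEIS1-WT and 174 to 240 with MEIS1-deltaHD, and 0 of them passed the test.

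Signals were compared as log2(signal + 16), in which a difference of 1 is about 2-fold for bright genes and less than the ratio of signals for dim ones. The threshold was an adjusted p of 0.05 in limma. Below, ± after a signal is the SD of 3 arrays and ± after a log2 difference (MEIS1-WT minus MEIS1-deltaHD) is its standard error (SE). Of 19990 genes tested, 1050 passed (5.25%), 485 higher with MEIS1-WT (2.43%) and 565 lower (2.83%). The median difference of all genes was 0.027. Most differences were small: 169 of the called genes (0.845% of those tested) differed by at least 1, 71 higher and 98 lower, and 18 by at least 2, 5 higher and 13 lower. All 3 arrays of one group lay beyond all 3 of the other in 1036 of the 1050 called genes. Without a test, 12.5% of all genes had every MEIS1-WT array above every MEIS1-deltaHD array and 10.5% had every one below. With the arrays scaled to a common median signal in place of the authors' scaling, 221 genes were higher and 723 lower, 23.4% higher in place of 46.2%, and the median difference of all genes was -0.073. Leaving out any 1 array of the 2 groups lowered the count, to between 692 and 893. It was lowest without MEIS1-deltaHD replicate 1, at 692 (321 higher, 371 lower), and next without replicate 2, at 708 (302 higher, 406 lower).

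**Figure D1:**
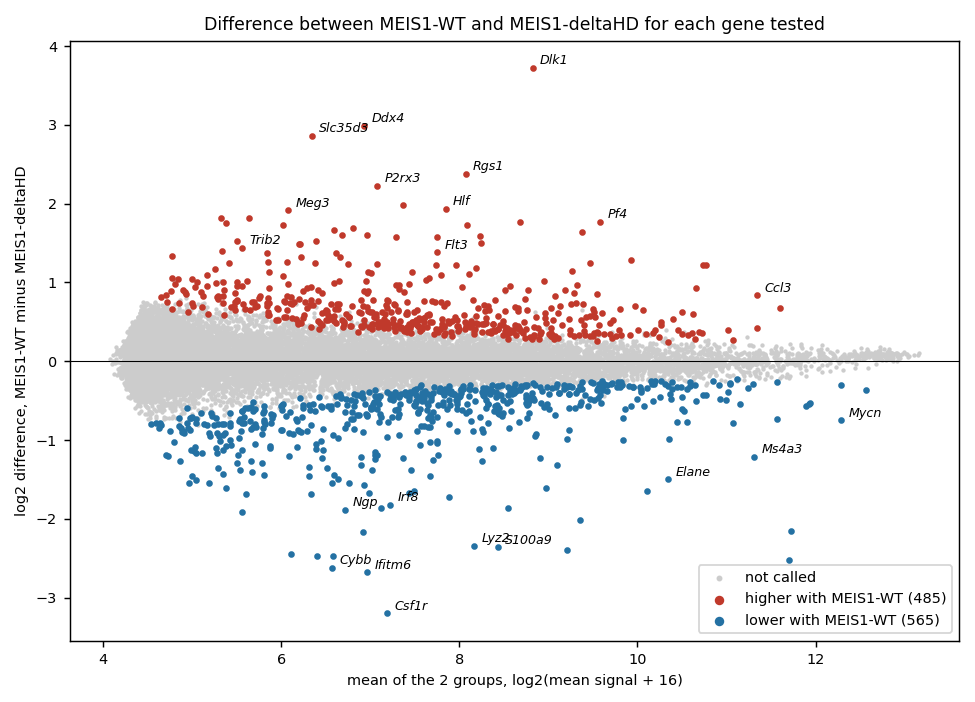
Log2 difference of each of the 19990 genes (vertical axis, MEIS1-WT minus MEIS1-deltaHD) against the mean level of both groups, as log2(signal + 16) (horizontal axis). Red points are the 485 genes higher with MEIS1-WT and blue points the 565 lower. Dlk1, at 3.72, lies highest and Csf1r, at -3.20, lowest.

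The gene with the largest difference was Dlk1, an imprinted gene for a membrane protein related to Notch ligands. Its signal was 1769, 1425 and 1704 with MEIS1-WT and 106, 103 and 116 with MEIS1-deltaHD, against 226, 248 and 305 in control and 144, 162 and 170.5 with M33-MEIS1. Every MEIS1-WT array stood far above the other 9 arrays, and the MEIS1-deltaHD arrays stood below control. The difference was 3.72 ± 0.11 SE (adjusted p = 1.2e-17), and a second, dimmer Dlk1 probe set read 25.9 ± 3.70 against 8.12 ± 3.86 (log2 difference 0.80). Meg3 and Rian, noncoding RNAs of the same imprinted locus that come from the other parental copy, were also higher. Meg3 read 115, 98.4 and 131 against 16, 17.2 and 22.9 (1.91 ± 0.16 SE, adjusted p = 1.2e-08), with 36.7, 47.2 and 39.3 in control. Rian was dim, at 26, 20.8 and 26.9 against 10.8, 0.849 and 6.15 (0.91 ± 0.21 SE, adjusted p = 0.00813), and no longer passed without MEIS1-deltaHD replicate 2 (adjusted p = 0.0798) or when shared probe sets, those named for matching several transcripts, were left out. A further imprinted gene, the zinc-finger factor Plagl1, differed by 1.76 on a shared probe set, at 68.9, 58.9 and 53.1 against 7.28, 6.56 and 5.64. An unshared probe set differed by -0.21 (adjusted p = 0.746 with shared sets left out). It was dim, at 9.19 ± 5.18 against 13 ± 5.47, and could not decide. Of 9 measured imprinted genes 4 were higher and 0 lower, where 2.43% of all genes were higher. The median of the 9 was 0.322, against 0.027 over all genes. Igf2 (0.06), Mest (0.10) and Grb10 (-0.34) did not pass.

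After Dlk1, the largest positive differences were those of Ddx4 and Slc35d3. Ddx4, a germ cell RNA helicase, read 322, 349 and 310.0 with MEIS1-WT and 29.4, 24.4 and 28 with MEIS1-deltaHD (2.99 ± 0.18 SE, adjusted p = 2.0e-11), against 40.5, 77.6 and 35.5 in control. Slc35d3, a protein required for the dense granules of platelets, read 207, 174 and 224 against 10.6, 11.2 and 20.8 (2.86 ± 0.17 SE, adjusted p = 2.6e-11), and control lay at 11.2, 20.3 and 18.3. On neither gene did an array of the MEIS1-deltaHD, control or M33-MEIS1 groups reach the lowest MEIS1-WT array. Rasgef1b, an exchange factor for Ras family proteins, read 324, 322 and 284 against 66.5, 48.8 and 87.9 (1.99 ± 0.17 SE) and 68.7, 97.8 and 51.8 in control. Hlf, a transcription factor of blood stem cells and a partner in leukaemia fusions, read 427, 416 and 455 against 97.2, 92.6 and 115 (1.94 ± 0.13 SE, adjusted p = 1.9e-10). Control cultures, at 186, 246 and 158, lay between the 2 groups. The rest of the 15 largest were the G protein regulator Rgs1 (2.38), the water channel Aqp8 (1.82), the insulin receptor docking protein Irs1 (1.82), the platelet chemokine Pf4 (1.77), the activation marker Cd69 (1.76), the TGF-beta family member Gdf10 (1.73), the receptor phosphatase Ptprg (1.69) and P2rx3. Not all of these stood above control: Cd69 read 811, 666 and 716 with MEIS1-WT, 177, 169.8 and 280.0 with MEIS1-deltaHD and 460.1, 727 and 412 in control, so that MEIS1-WT overlapped control. P2rx3, an ATP-gated ion channel, ran differently across the groups: it read 303, 226 and 300.5 with MEIS1-WT and 40.6, 47.9 and 50.4 with MEIS1-deltaHD (2.22 ± 0.12 SE), and 1174 ± 172 (n = 3) in control. Both MEIS1 forms were thus below control on it, by -2.02 and -4.25.

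**Figure D2:**
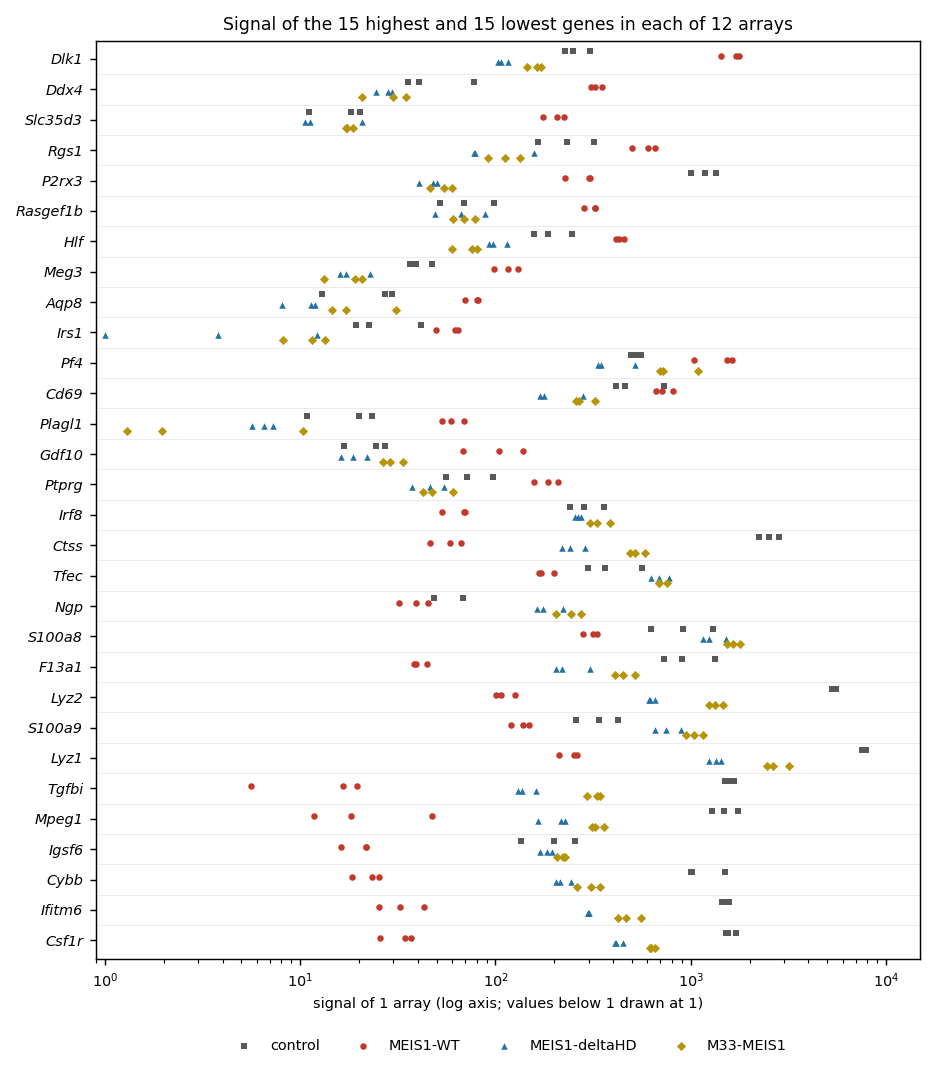
Signal on each of the 12 arrays (horizontal log axis) of the 15 genes with the largest positive and the 15 with the largest negative difference among called genes whose groups did not overlap, in order of the difference. Red circles are MEIS1-WT, blue triangles MEIS1-deltaHD, dark squares control and yellow diamonds M33-MEIS1, with 3 arrays each. The red circles lie right of the blue triangles in every gene of the upper set, such as Dlk1, and left of them in every gene of the lower set, such as Csf1r.

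The genes linked to Meis1 in earlier leukaemia work were a list of 19, of which 18 were measured. Of these, 9 were higher with MEIS1-WT and 1 lower, with a median of 0.297 against 0.027 over all genes. Among all genes 2.43% were higher and 2.83% lower. The list is not independent of these samples, since the title of the series names Trib2 and Ccl3. Trib2, a pseudokinase that drives degradation of C/EBP alpha, read 53.8, 75.7 and 55.2 with MEIS1-WT, 17.3, 13.1 and 7.77 with MEIS1-deltaHD and 10.9, 29.4 and 17.3 in control. It was low in all groups but MEIS1-WT, whose arrays lay above all the others (1.44 ± 0.21 SE, adjusted p = 4.4e-05). The probe set is a shared one, and the other 2 Trib2 probe sets, at 11.2 ± 1.87 against 7.90 ± 0.380 and at 1.43 ± 1.499 against 4.66 ± 3.74, did not pass. Ccl3, a chemokine for monocytes and a regulator of progenitor growth, read 3487, 3218 and 3588 against 1607, 1739 and 2498, with 1693, 1833 and 1476 in control (0.84 ± 0.11 SE, adjusted p = 2.1e-05). Its neighbour Ccl4 read 337, 289 and 420.4 against 97.7, 69.8 and 163 (1.58 ± 0.18 SE, adjusted p = 1.7e-06). For both chemokines MEIS1-deltaHD overlapped control and MEIS1-WT was above it. The receptor tyrosine kinase Flt3, a common target of mutation in acute myeloid leukaemia, read 317, 305 and 372 against 120.2, 133 and 99.4 and 169, 168 and 137 in control (1.38 ± 0.13 SE, adjusted p = 3.8e-08). MEIS1-WT arrays were above control and MEIS1-deltaHD arrays below it on this gene. Among the rest of the list, Msi2, an RNA-binding protein of stem cells, was higher by 0.91 and the ETS factor Erg by 0.45, both named after their values were seen. Myb (0.03), Cd34 (0.00), Hif1a (0.07), Sytl1 (-0.04), Mef2c (0.14), Ccnd1 (0.10) and Ccnd3 (0.13) were among those that did not pass. The other Tribbles genes, Trib1 (0.56) and Trib3 (0.44), did not pass either.

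**Figure D3:**
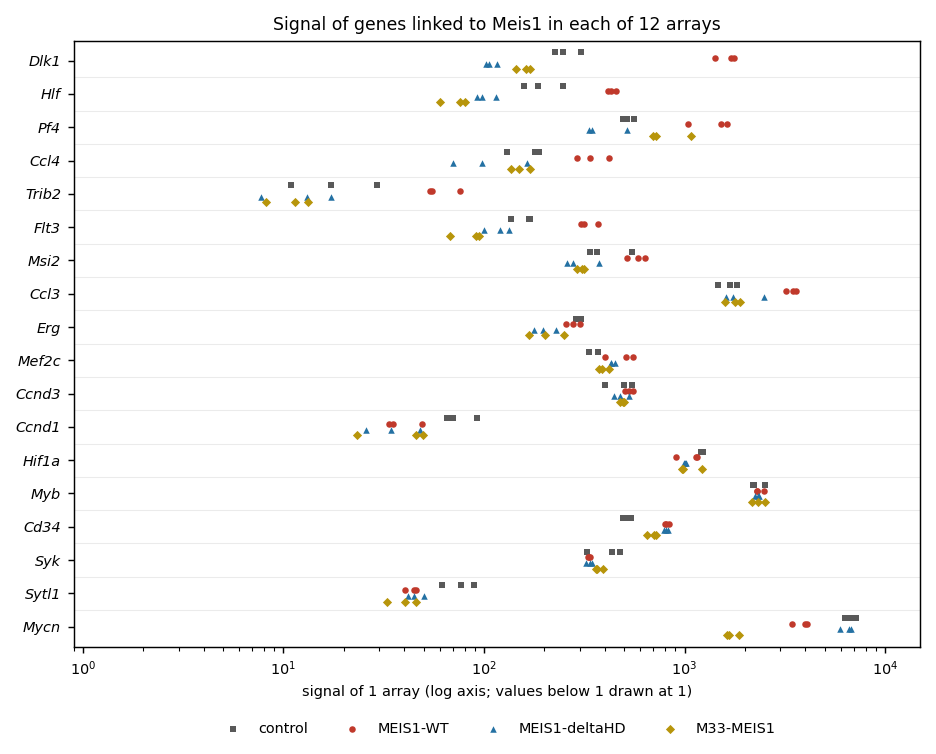
Signal on each of the 12 arrays (horizontal log axis) of the 18 measured genes linked to Meis1, in order of the difference between MEIS1-WT (red circles) and MEIS1-deltaHD (blue triangles), with control as dark squares and M33-MEIS1 as yellow diamonds, 3 arrays each. The groups part clearly from Dlk1 down to Ccl3, overlap through the middle of the plot, and part the other way at Mycn on the probe set used.

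Mycn, a MYC family transcription factor, gave opposite answers from different probe sets. The brightest one read 4066, 3449 and 3998 with MEIS1-WT and 5961, 6627 and 6760.0 with MEIS1-deltaHD (-0.75 ± 0.081 SE, adjusted p = 6.7e-07). A dimmer one, tested singly with no filter, read 591 against 328 (0.82, adjusted p = 0.00967), and the other read 79.6 against 48.2 (0.58, adjusted p = 0.127). The direction for Mycn RNA is therefore not settled by these arrays. Of 10 genes of the Myc and Max network 2 passed as lower on the probe sets used, where 2.83% of all genes were lower. They were Mycn, whose direction is not settled, and the Max-like protein Mlx (-0.45). Mlx did not pass without MEIS1-deltaHD replicate 1 (adjusted p = 0.0932). Myc differed by -0.08 and did not pass.

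The targeted gene itself gave no clear check of the labels. The Meis1 probe set used read 129, 145 and 148 with MEIS1-WT, 100.1, 109.5 and 120.0 with MEIS1-deltaHD and 204, 189 and 168 in control. Both MEIS1 groups lay below control, and MEIS1-WT did not pass against MEIS1-deltaHD (0.32 ± 0.11 SE, adjusted p = 0.122). The other 2 Meis1 probe sets differed by 0.23 and 0.02. Whether any of the 3 lies in the sequence carried by the viruses, or in the part deleted, is not known here. Among 9 measured genes of the TALE class, the PBX-binding factor Pknox1 (194, 159 and 189 against 131, 109 and 75.5, 0.72 ± 0.14 SE, adjusted p = 0.00148) and the repressor Tgif2 (131, 138 and 148 against 82.8, 79.9 and 74.3, 0.70 ± 0.12 SE, adjusted p = 2.9e-04) were higher. Tgif1 was lower by a call that several alternatives ended (-0.40, adjusted p = 0.0445, and 0.064 to 0.3 without any array but MEIS1-deltaHD replicate 2). Pbx3 did not pass (0.12, adjusted p = 0.546). Of 9 Hoxa cluster genes 0 passed, where 5.25% of all genes did. Hoxa9, the HOX gene most often coexpressed with Meis1 in leukaemia, read 1877, 1881 and 1837 against 1537, 1663 and 1657 (0.20, adjusted p = 0.106), and Hoxa7 differed by -0.37 (adjusted p = 0.0551). Groups did not overlap in either of these, and each crossed the threshold in some alternatives. Every MEIS1-WT array was above every MEIS1-deltaHD array in 12.5% of all genes and below in 10.5%. A dimmer Hoxa9 probe set, tested singly with no filter, read 308 ± 27.8 against 318 ± 13.1 (-0.05, adjusted p = 0.902).

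Most monocyte and macrophage genes measured were lower with MEIS1-WT than with MEIS1-deltaHD. Of 26 measured members of this list 19 were lower and 0 higher, where 2.83% of all genes were lower, and the median difference was -1.10. The summed signal of the list was 3911 to 4302 with MEIS1-WT, 7884 to 8138 with MEIS1-deltaHD, 10589 to 12216 with M33-MEIS1 and 25446 to 28692 in control. The ranges of the 4 groups did not overlap. Csf1r, the receptor for the macrophage growth factor M-CSF, read 34.3, 36.9 and 25.7 with MEIS1-WT and 413, 409 and 452 with MEIS1-deltaHD, against 1521, 1544 and 1707 in control. Its arrays separated fully in the order MEIS1-WT, MEIS1-deltaHD, M33-MEIS1 and control (-3.20 ± 0.091 SE, adjusted p = 1.2e-17). The other 2 Csf1r probe sets were lower too, by -2.06 and -0.78. Lysozyme 2 (Lyz2), an antibacterial enzyme of macrophages and neutrophils, read 126, 101 and 107 against 621, 613 and 655, with 5307, 5527 and 5339 in control (-2.34 ± 0.081 SE, adjusted p = 4.1e-16). Mpeg1, a pore-forming protein of phagocytes, read 47.3, 11.7 and 18.2 against 164, 217 and 226 (-2.47 ± 0.19 SE). Tgfbi, a matrix protein that monocytes make in quantity, read 5.57, 19.5 and 16.5 against 130.3, 136 and 162 (-2.44 ± 0.13 SE). Control read 1286, 1485 and 1743 on Mpeg1 and 1492, 1578 and 1674 on Tgfbi. On Csf1r, Lyz2, Mpeg1 and Tgfbi every MEIS1-deltaHD array lay above every MEIS1-WT array and below every control array. The coagulation factor subunit F13a1 (-2.17), the lysosomal protease Ctss (-1.86), the oxidase subunit Cybb (-2.62), the membrane proteins Ifitm6 (-2.68) and Igsf6 (-2.47) and the MITF relative Tfec (-1.86) belonged to the 15 lowest. Igsf6 and Tfec did not share the order of the others: MEIS1-deltaHD read 195, 184 and 169.9 and control 199.7, 135 and 256 on Igsf6, while Tfec read 199, 171 and 168 with MEIS1-WT, 684, 770.1 and 627 with MEIS1-deltaHD and 364, 299 and 563 in control.

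Among the measured members, 7 of the monocyte list did not pass, such as the Fc receptor Fcgr3 (817, 726 and 806 against 775, 799 and 835, -0.04), the mannose receptor Mrc1 (0.06) and the complement subunit C1qb (-0.04). Set beside control, the median of the list was -2.55 with MEIS1-WT and -1.975 with MEIS1-deltaHD, where all genes had -0.124 and -0.17. Those 2 comparisons share the control arrays. The second lysozyme gene, Lyz1, differed by -2.39 on a shared probe set that a near-identical copy can also bind. Its unshared probe set differed by -0.09 (adjusted p = 0.914 with shared sets left out). That unshared set was dim, at 7.67 ± 4.29 against 9.21 ± 4.46, and could not decide.

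Many transcription factors of myeloid maturation were also lower with MEIS1-WT. Of 17 measured, 9 were lower, 1 higher and 7 not called (median -0.491), where 2.83% of all genes were lower and 2.43% higher. Irf8, which directs monocyte and dendritic cell fate, read 68.9, 53 and 69.5 with MEIS1-WT, 255, 264 and 274 with MEIS1-deltaHD and 282, 240.3 and 359 in control. MEIS1-deltaHD overlapped control on Irf8, and MEIS1-WT lay below both (-1.82 ± 0.12 SE, adjusted p = 2.1e-10). Cebpd, a C/EBP family factor, read 70.7, 81.4 and 66.2 against 189.7, 199 and 156, with 143, 91.2 and 214 in control (-1.15 ± 0.17 SE, adjusted p = 6.0e-05). Cebpb, a related factor of macrophages and emergency granulopoiesis, read 427, 381 and 418 against 685, 614 and 701 and 1201, 1333 and 1336 in control (-0.68 ± 0.080 SE, adjusted p = 2.2e-06). Cebpd thus had MEIS1-deltaHD within the range of control, while Cebpb had it below. The zinc-finger factor Zeb2 was lower by -0.63 on the probe set used. Its other probe sets, all dimmer and tested singly with no filter, differed by -0.09 to -0.25 and did not pass (adjusted p of 0.592 to 0.932). The helix-loop-helix inhibitor Id2 was lower by -0.90 on a shared probe set (-0.05, adjusted p = 0.942 with shared sets left out). Its unshared probe set was dim, at 10.4 ± 2.06 against 11.4 ± 1.56, and could not decide. Another shared Id2 probe set differed by -1.31. Spi1 (PU.1), the master factor of myeloid cells, named after its value was seen, read 284, 274 and 315 against 483, 466 and 422 (-0.62 ± 0.10 SE, adjusted p = 2.5e-04). The orphan receptor Nr4a1 (0.71) was the member counted as higher. Its call was lost when any array of the 2 groups other than MEIS1-WT replicate 2 was left out (adjusted p of 0.057 to 0.0877).

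Receptor chains for growth factors included called genes of both directions. Of 18 measured, 2 were higher, 7 lower and 9 not called (median -0.258), where 2.43% of all genes were higher and 2.83% lower. The higher ones were Flt3, given above, and Kit, the stem cell factor receptor, at 544, 520.2 and 409.7 against 312, 298 and 313 (0.64 ± 0.094 SE, adjusted p = 5.7e-05), with control at 409.7, 376 and 406. The lower ones included Csf1r, the GM-CSF receptor chain Csf2ra (72.6, 68.7 and 72.2 against 142, 125 and 119, -0.73 ± 0.11 SE, adjusted p = 6.4e-05), the IL-6 signal chain Il6st (8.62, 16.3 and 12.1 against 34.3, 31.3 and 46.5, -0.91 ± 0.17 SE, adjusted p = 8.6e-04) and the interferon gamma receptor chain Ifngr2 (-0.79). Kit with MEIS1-WT overlapped or exceeded control, and Csf2ra and Il6st had both MEIS1 groups below control. The G-CSF receptor Csf3r (-0.34) and the IL-3 receptor chain Il3ra (-0.18) did not pass. The protocol names the ligands of Kit and of the IL-3 and IL-6 receptors in the medium, and none for Flt3, Csf1r or Csf2ra.

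Most granule genes of neutrophils measured were lower with MEIS1-WT, and several stood above control with MEIS1-deltaHD. Neutrophils make primary granules at the promyelocyte stage and secondary and tertiary granules later. Of 14 measured primary granule genes 11 were lower and 0 higher (median -0.592), and of 17 secondary and tertiary granule genes 10 were lower and 0 higher (median -0.679), where 2.83% of all genes were lower. Without an intensity trend in the fit, so that the spread was not modelled as depending on the level, 7 of the primary and 9 of the other granule genes passed. Summed over the primary list the signal was 20905 to 21805 with MEIS1-WT, 30688 to 32060 with MEIS1-deltaHD and 26563 to 30813 in control. Elane, neutrophil elastase, read 761, 785 and 726 with MEIS1-WT and 2346, 2234 and 1942 with MEIS1-deltaHD, against 800.0, 402 and 1016 in control and 2041, 1793 and 1845 with M33-MEIS1. MEIS1-WT overlapped control, and MEIS1-deltaHD stood with M33-MEIS1 above both (-1.50 ± 0.18 SE, adjusted p = 3.1e-06). Ms4a3, a membrane protein of granulocyte progenitors, read 1658, 1684 and 1618 against 3956, 4094 and 3549, with 1042, 743 and 1433 in control (-1.22 ± 0.13 SE, adjusted p = 8.4e-07). Ngp, a secondary granule protein, read 39.2, 45 and 31.9 against 175, 221 and 163, with 48.6, 68.1 and 68.4 in control (-1.88 ± 0.14 SE, adjusted p = 1.6e-09). S100a9, a calcium-binding protein abundant in neutrophils, read 120.1, 139 and 149 against 749, 893 and 657, with 341, 258 and 424 in control (-2.36 ± 0.13 SE, adjusted p = 5.5e-12). Ngp and S100a9 had MEIS1-WT below control and MEIS1-deltaHD above it, without overlap. S100a8, which pairs with S100a9, read 331, 279 and 315 against 1233, 1507 and 1153 and 918, 628 and 1301 in control (-2.01 ± 0.15 SE, adjusted p = 1.8e-09), so that MEIS1-deltaHD overlapped control.

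Against control, these genes gave both signs. Elane differed from control by 0.13 with MEIS1-WT (adjusted p = 0.627) and by 1.63 with MEIS1-deltaHD (adjusted p = 1.1e-07), Ngp by -0.50 and 1.38, and S100a9 by -1.21 and 1.15. The collagenase Mmp8 was lower than control with both forms, by -4.28 and -3.01. Among the other granule genes, Clec5a, a myeloid lectin receptor, was lower by -1.67, haptoglobin (Hp) by -0.85, proteinase 3 (Prtn3) by -0.57, Mpo by -0.36 and cathepsin G (Ctsg) by -0.30, the last 3 named after their values were seen. Lactoferrin (Ltf, -0.30), Mmp9 (0.04) and Padi4 (-0.04) did not pass. Without MEIS1-deltaHD replicate 2, 9 of the primary granule genes passed.

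Part of the megakaryocyte and platelet genes were higher with MEIS1-WT than with MEIS1-deltaHD. Of 22 measured 9 were higher, 1 lower and 12 not called, where 2.43% of all genes were higher, and the median difference was 0.546. The list summed to 6939 to 7915 with MEIS1-WT, 4928 to 5603 with MEIS1-deltaHD and 7907 to 8848 in control. Pf4, a chemokine stored in platelet granules, read 1624, 1037 and 1525 with MEIS1-WT, 335, 346 and 517 with MEIS1-deltaHD and 557, 518 and 496 in control (1.77 ± 0.16 SE, adjusted p = 3.2e-08). Its neighbour Ppbp, the precursor of a further platelet chemokine, read 110.5, 55.1 and 65.1 against 17.1, 13.5 and 27.3 and 47.3, 57.5 and 38.6 in control (1.37 ± 0.21 SE, adjusted p = 1.0e-04). MEIS1-WT was above control on Pf4 and overlapped it on Ppbp. Itgb3, the beta chain of the platelet fibrinogen receptor, read 77.3, 65.5 and 94.2 against 27.5, 35.1 and 33.2 and 69.8, 77.7 and 63.6 in control (0.98 ± 0.15 SE, adjusted p = 9.7e-05). Its alpha chain Itga2b read 376, 331 and 434 against 226, 214 and 235 and 422, 440.4 and 321 in control (0.71 ± 0.11 SE, adjusted p = 7.7e-05), and the platelet kinase substrate Plek 1104, 1083 and 1143 against 674, 622 and 795 and 1404, 1478 and 1417 (0.67 ± 0.083 SE). Itga2b and Plek were named after their values were seen. On both integrin chains MEIS1-WT overlapped control and MEIS1-deltaHD lay below. From the progenitor list, Gfi1b, a repressor needed by megakaryocytes and erythroid cells, read 251, 248 and 296 against 124, 91.3 and 154 and 117, 149 and 108 (1.04 ± 0.14 SE, adjusted p = 1.2e-05), with MEIS1-WT above the overlapping other groups. The exception was thrombospondin 1 (Thbs1), a platelet granule protein that monocytes also make, at 86.7, 68.4 and 61.1 against 197, 165 and 188 (-1.19 ± 0.17 SE, adjusted p = 3.6e-05). The platelet receptors Gp9 (0.62), Gp6 (0.62) and Gp5 (0.05) and the adhesion protein Vwf (-0.28) did not pass. Gp9 and Gp6 differed by more than the median of the genes called higher, 0.585.

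**Figure D4:**
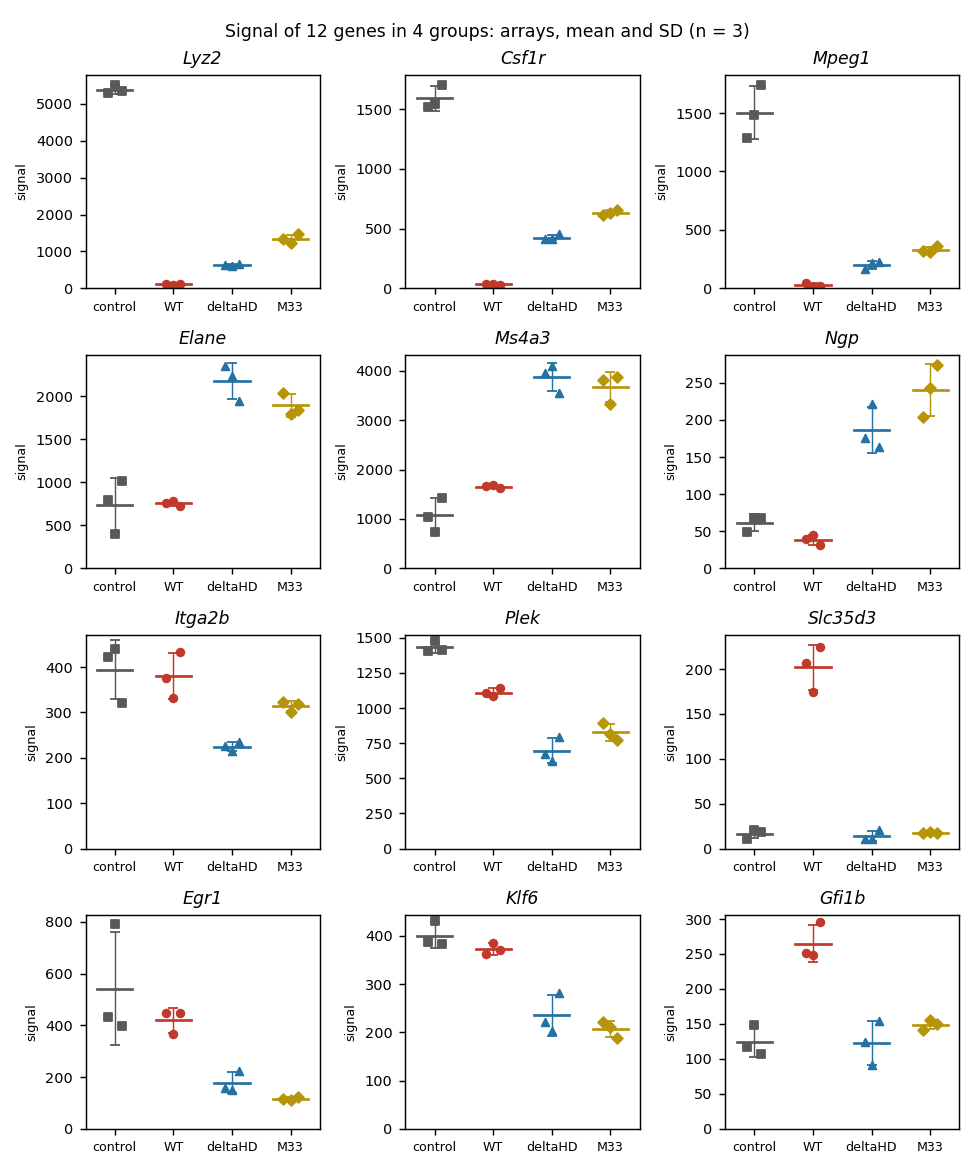
Signal (vertical axes, linear and from 0) of 12 genes in control, MEIS1-WT, MEIS1-deltaHD (deltaHD) and M33-MEIS1 (M33) cultures, chosen after their values were seen. Points are arrays, bars the mean and SD of 3 arrays. The monocyte genes of the top row fall from control to MEIS1-WT with MEIS1-deltaHD between, the granulocyte genes of the second row are highest with MEIS1-deltaHD and M33-MEIS1, and the platelet and early response genes below are lower with MEIS1-deltaHD than with MEIS1-WT.

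Some early response genes and feedback inhibitors of the MAP kinase pathway were also higher with MEIS1-WT. Cells switch on such genes within minutes of a growth signal, and the inhibitors among them damp the pathway that induced them. Of 22 immediate early genes 5 were higher, 0 lower and 17 not called (median 0.321), where 2.43% of all genes were higher. Of 14 genes in the feedback list 7 were higher, 0 lower and 7 not called (median 0.538). That list also holds the G protein regulators Rgs1 and Rgs2 and the ETS factors Etv4 and Etv5. Rgs1, Rgs2 and Etv4 were among its 7 higher. Without an intensity trend 3 immediate early and 5 feedback genes passed, and in a fit of only the 6 arrays compared 8 immediate early genes did. Egr1, a zinc-finger factor induced by the pathway, read 448, 365 and 448 with MEIS1-WT, 158, 151 and 224 with MEIS1-deltaHD and 433, 793 and 398 in control (1.19 ± 0.17 SE, adjusted p = 4.2e-05). Klf6, a further zinc-finger factor, read 362, 386 and 370.2 against 221, 203 and 282 and 387, 431 and 384 in control (0.64 ± 0.10 SE, adjusted p = 1.6e-04). MEIS1-WT overlapped control on both, and MEIS1-deltaHD lay below. Rgs1 read 607, 499 and 653 against 77.2, 78.4 and 157 and 234, 321 and 165 in control (2.38 ± 0.20 SE, adjusted p = 8.5e-09), and its neighbour Rgs2, also a brake on G protein signalling, 1001, 955 and 956 against 456, 451 and 729.9 and 616, 717 and 593 (0.85 ± 0.13 SE, adjusted p = 6.3e-05). Both were highest with MEIS1-WT. MEIS1-deltaHD replicate 3 was the highest of its group on Egr1, Klf6, Rgs1, Rgs2 and Ccl3, and without it 7 immediate early genes passed. The ETS factor Etv4 (1.05), Ier5 (0.75) and the MAP kinase phosphatase Dusp4 (0.56) were higher too, Dusp4 not under median scaling (adjusted p = 0.0604). Etv4 was dim, at 29.5 ± 2.55 against 6.45 ± 5.92. Tested singly with no filter, its other probe set (0.49, adjusted p = 0.268) and the dimmer Ier5 probe sets (0.004 and 0.05) did not pass. Spry2 (0.60) lost its call without replicate 1 of MEIS1-WT (0.51, adjusted p = 0.0887) and without replicate 2 of MEIS1-deltaHD (0.47, adjusted p = 0.113). Spred1 (0.59) lost it without replicate 2 of either group (0.52 and 0.50, adjusted p = 0.0643 and 0.0829). Under median scaling 4 feedback genes were higher and 1 lower. Fos (-0.22), Junb (0.06), Dusp6 (0.26) and Dusp1 (0.37) did not pass.

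Chemokines and cytokines split. Of 24 measured 4 were higher and 3 lower (median 0.088), where 2.43% of all genes were higher and 2.83% lower. Besides Ccl3, Ccl4 and Pf4, the neutrophil attractant Cxcl2 read 188, 188 and 206 against 46.2, 31.1 and 95.7 and 135, 257 and 114 in control (1.61 ± 0.29 SE, adjusted p = 7.9e-04), a call lost without an intensity trend (adjusted p = 0.0583). The lower ones included Ccl6, a chemokine of macrophages, at 47.9, 36.8 and 34.9 against 147, 144 and 145 and 767, 866 and 888 in control (-1.54 ± 0.11 SE, adjusted p = 1.3e-09), and Ccl9, at 1203, 885 and 1062 against 1807, 1665 and 1911 and 2028, 2210.0 and 2222 (-0.77 ± 0.093 SE, adjusted p = 3.1e-06). Il6, named after its value was seen, was the other, at -0.62. Ccl6 and Ccl9 were thus lowest with MEIS1-WT, where Ccl3 and Ccl4 were highest. Of 17 NF-kB targets 4 were higher and 0 lower (median 0.142), 1 without an intensity trend and 2 without MEIS1-WT replicate 1 or MEIS1-deltaHD replicate 1 or 2. Beside Cxcl2 they were the signalling adaptor Traf1, Ptgs2 and Nfkbiz, with Traf1 at 45.3, 38.1 and 40.8 against 7.93, 13.7 and 17 (1.00 ± 0.20 SE, adjusted p = 0.00185). The prostaglandin synthase Ptgs2 (0.89) lost its call without MEIS1-WT replicate 1 or MEIS1-deltaHD replicate 1 or 2 (adjusted p of 0.0795 to 0.0877). Nfkbiz (0.48), an inhibitor family member, lost it without any array but MEIS1-deltaHD replicate 3 (adjusted p of 0.103 to 0.296). Of 19 interferon-response genes 1 was higher and 0 lower (median 0.027), although all 19 were lower than control with either form of MEIS1. The GTPase Ifi47, the 1 called, lost its call without any array but MEIS1-WT replicate 1 (adjusted p of 0.052 to 0.125).

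Stem and progenitor genes gave a mixed picture. Of 23 measured 7 were higher and 2 lower (median 0.033, and -0.053 with median scaling). Over all genes 2.43% were higher and 2.83% lower. Mecom, a transcription factor of stem cells also known as Evi1, read 183, 180.5 and 151 against 102, 98 and 116 and 138, 162 and 139.5 in control (0.63 ± 0.11 SE, adjusted p = 6.5e-04). Angpt1, a growth factor for endothelium that blood stem cells also make, read 705, 711 and 681 against 372, 365 and 429 and 504, 419.7 and 336 (0.83 ± 0.11 SE, adjusted p = 9.0e-06). The membrane glycoprotein Prom1 was lower, at 14.3, 9.37 and 7.74 against 32.8, 41.1 and 31 and 39, 27.3 and 46.5 (-0.95 ± 0.18 SE, adjusted p = 0.00131). MEIS1-WT overlapped or exceeded control on Mecom and Angpt1 and lay below it on Prom1. Cd34, Lmo2 (-0.04), Tal1 (0.03), Lyl1 (-0.12), Sox4 (0.02) and Runx1 (-0.20) did not pass.

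Mast cell and basophil genes went both ways. Of 17 measured 5 were lower, 2, Kit and Gata2, higher and 10 not called (median -0.11). The shares over all genes were 2.83% lower and 2.43% higher. The IgE receptor chains Fcer1a (41.4, 31.3 and 41.8 against 84, 70.05 and 97.3, -0.88 ± 0.14 SE, adjusted p = 2.2e-04) and Ms4a2 (129.7, 157 and 134 against 266, 266 and 193, -0.71 ± 0.11 SE, adjusted p = 1.1e-04) were lower, as were the proteases Mcpt2 (-1.07) and Mcpt8 (-0.53) and the receptor Cd200r3 (-0.73), the last not without MEIS1-deltaHD replicate 1 or 2 (adjusted p = 0.0522 and 0.0609). The proteases carboxypeptidase A3 (Cpa3, -0.19) and tryptase Tpsb2 (0.07) and the histamine-forming enzyme Hdc (0.17) did not pass. Of 13 dendritic cell and MHC class II genes, Flt3 was higher and Irf8 and Cd74 lower, Cd74 not without replicate 3 of MEIS1-WT (adjusted p = 0.0855) or of MEIS1-deltaHD (adjusted p = 0.085). The lists of other lineages were short, and 5.25% of all genes were called, so their counts say little about these lineages. Of 6 B cell genes 0 passed, of 5 T and NK cell genes only Nkg7, which granulocyte progenitors also express (-0.83), of 3 eosinophil genes 0, and of 11 erythroid genes only the carbonic anhydrase Car2 (0.61). The B cell list summed to 114 to 199 with MEIS1-WT and 104 to 136 with MEIS1-deltaHD. For the erythroid list the sums were 4869 to 5231 and 4282 to 4626, without overlap, but its median difference was 0.002. Car2 alone read 1976, 1753 and 2066 against 1238, 1157 and 1401, so the gap in the sums does not describe the list.

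Cell cycle genes passed between the forms at about the share of all genes, which was 2.43% higher and 2.83% lower. Of 22 G1/S genes 1 was higher and 0 lower (median 0.037, and -0.101 with median scaling), and of 19 G2/M genes 0 passed (median -0.119). Against control, 21 of the 22 G1/S genes were higher with MEIS1-WT and 22 with MEIS1-deltaHD. The replication clamp Pcna read 5442, 5335 and 5811 with MEIS1-WT, 5088, 5406 and 5381 with MEIS1-deltaHD and 4117, 3736 and 3973 in control. Both MEIS1 groups were above control, and their difference was 0.06 (adjusted p = 0.776). The proliferation marker Mki67 differed by -0.03. Ccne2, the G1/S member called higher (0.38), lost its call without replicate 1 or 2 of MEIS1-WT (0.38 and 0.33, adjusted p = 0.064 and 0.115) and without replicate 1 of MEIS1-deltaHD (0.32, adjusted p = 0.144). Among 11 Bcl-2 family genes the death-promoting Bbc3 (Puma) was higher, at 167, 176 and 208 against 108, 107 and 118 (0.65 ± 0.12 SE, adjusted p = 8.6e-04), and Bcl2l11 (Bim) was lower on a shared probe set (-0.69, and -0.41 with an adjusted p of 0.059 with shared sets left out). Control lay above both groups on each, at 273, 292 and 231 for Bbc3 and 191, 189 and 179 for Bcl2l11. Of 15 p53 targets 2 were higher, Bbc3 and the CDK inhibitor Cdkn1a (0.46). Cdkn1a lost its call without MEIS1-WT replicate 1 or 3 or MEIS1-deltaHD replicate 1 or 2 (adjusted p of 0.0576 to 0.104). Of 11 D cyclins, their kinases and CDK inhibitors, Cdkn1a and Cdkn2d (0.38) were higher, and neither without MEIS1-deltaHD replicate 1 or 2.

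Metabolic and stress lists held calls that often depended on the setting. Beside them, 2.43% of all genes were higher and 2.83% lower. Cholesterol synthesis genes, all 17 of them above control with either form, were higher with MEIS1-WT in 7 of 17 (median 0.311). The demethylase Cyp51 read 806, 867 and 866 against 514, 576 and 598, with 212, 202 and 242 in control (0.58 ± 0.083 SE, adjusted p = 4.3e-05). It was the member that passed under each alternative among those named, and 1 of the 17 passed with median scaling or without an intensity trend. Leaving out 1 array left between 3 and 8 called, 3 without MEIS1-WT replicate 3 or MEIS1-deltaHD replicate 2 and 4 without MEIS1-deltaHD replicate 1. Of 13 fatty acid synthesis genes 0 passed. Of 20 ATF4 and amino acid stress genes 4 were higher and 0 lower (median 0.163), and 2 passed without an intensity trend, without shared probe sets or without MEIS1-deltaHD replicate 2. They were led by the stress protein Nupr1, at 334, 330.1 and 426 against 124, 129 and 189, with 1575, 1421 and 1480.0 in control (1.23 ± 0.12 SE, adjusted p = 7.1e-08), and by the mTOR inhibitor Ddit4, at 288, 341 and 411 against 153, 158 and 205 (0.94 ± 0.12 SE, adjusted p = 1.2e-05). The lipoprotein receptor Vldlr was called on a shared probe set (0.96). With shared sets left out it differed by 0.25 (adjusted p = 0.686), and its 5 other probe sets, all dim, did not pass. It also lost its call without replicate 2 of MEIS1-WT (adjusted p = 0.0522) or of MEIS1-deltaHD (adjusted p = 0.104). The stress factor Ddit3 (0.55) lost it without replicate 3 of MEIS1-WT (adjusted p = 0.14) and without replicate 1 or 2 of MEIS1-deltaHD (0.169 and 0.195), and its groups overlapped. Of 19 hypoxia and glycolysis genes 4 were higher and 0 lower (median 0.178), 1 without an intensity trend, 2 with median scaling, without shared probe sets or without replicate 1 or 2 of either group, and 7 without MEIS1-deltaHD replicate 3. Beside Ddit4 they were Ndrg1 (0.75, with overlapping groups, adjusted p = 0.0696 without an intensity trend), the glucose transporter Slc2a1 (0.34) and the kinase Pdk1 (0.34). Slc2a1 lost its call without any array but MEIS1-deltaHD replicate 3 (adjusted p of 0.0666 to 0.258), and Pdk1 without MEIS1-WT replicate 1 or 2 or MEIS1-deltaHD replicate 1 or 2 (adjusted p of 0.0575 to 0.222). With shared probe sets left out Pdk1 differed by 0.11 (adjusted p = 0.662) and Slc2a1 by 0.27 (adjusted p = 0.257). Heat shock chaperones gave 0 of 14. Polycomb genes gave 1 of 19, Cbx6 (0.42), whose call was lost without any array but MEIS1-deltaHD replicate 1 (adjusted p of 0.052 to 0.159).

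**Figure D5:**
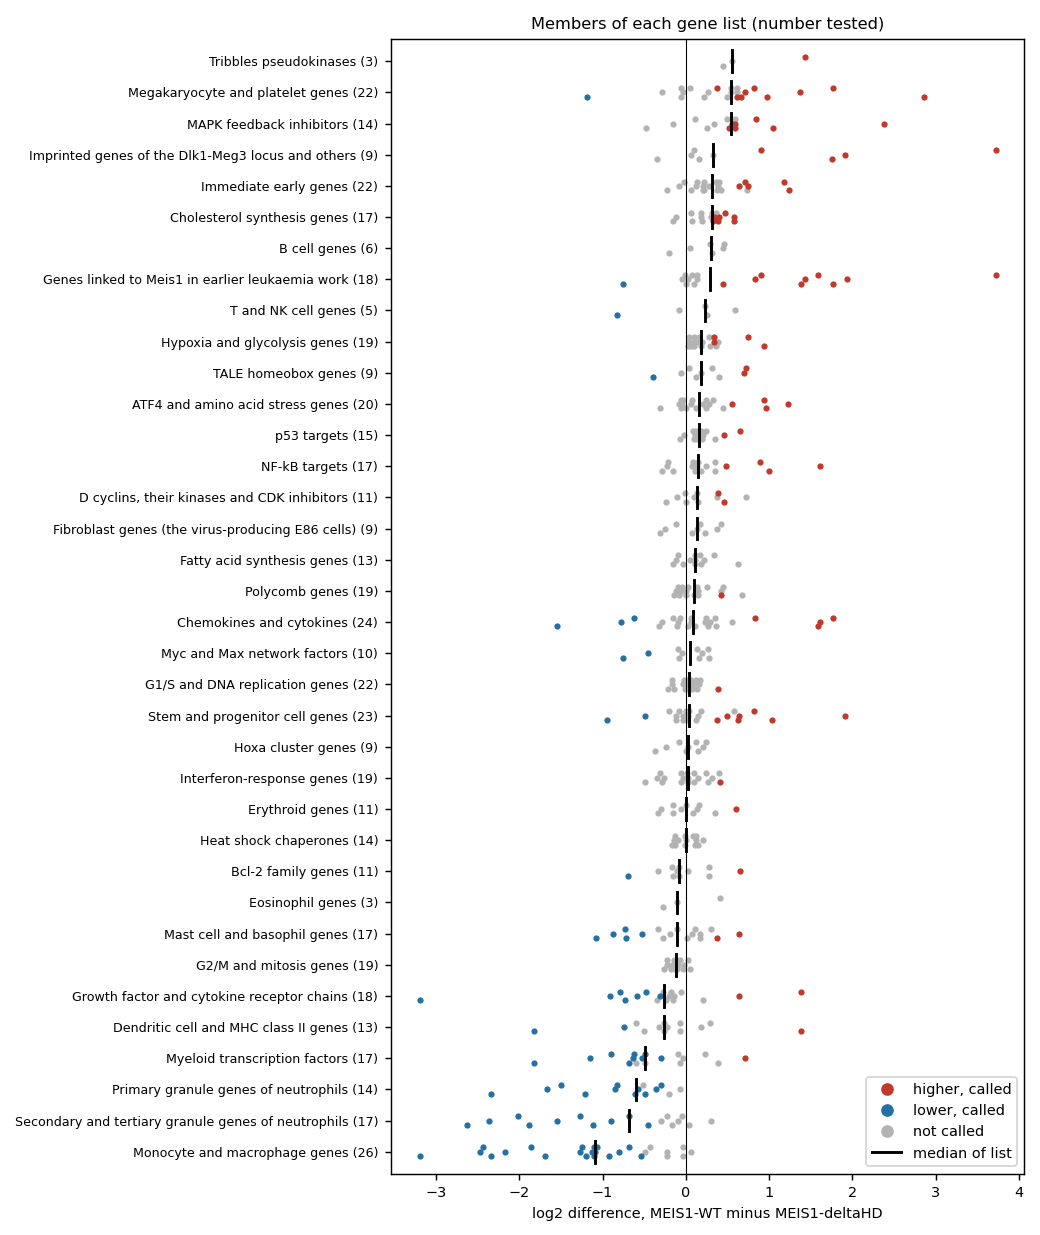
Log2 difference (horizontal axis, MEIS1-WT minus MEIS1-deltaHD) of every measured member of 36 gene lists, ordered by the list's median (black bar), with the number measured in brackets. Red points were called higher, blue called lower and grey not called. Monocyte genes, with a median of -1.10, and the granule lists stand at the lower end. Megakaryocyte genes, at 0.546, and the feedback list, at 0.538, stand near the upper end.

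Promoter sequences are shown for Trib2 and for genes of the platelet and granule groups that moved together, with the motifs found in them. Those printed all held a motif. Most of the genes that head the comparison or were fixed for it, where matched to a promoter, held none. They are RefSeq sequences of mouse GRCm38.p6, 5′ to 3′ on the gene's strand. Each ends at the base before the annotated start of transcription, except that of Trib2. Capitals mark, on either strand, TGACAG (the core bound by MEIS and related homeodomains), TGATTNAT (a HOX-PBX site), GAGGAAGT (a site for Spi1) and TTGCNNAA (a C/EBP site). A motif on the other strand appears as its reverse complement. Trib2 is given as the 30 bases that hold both homeodomain motifs, at chr12:15816941-15816970 on the minus strand, 161 and 184 bases before a start whose window lies within the annotated gene. The others are Pf4 at chr5:90772185-90772434 (plus strand), Elane at chr10:79886062-79886311 (plus), S100a8 at chr3:90668821-90669070 (plus), S100a9 at chr3:90695722-90695971 (minus) and Ngp at chr9:110419558-110419807 (plus).
Trib2: cTGATTGATgggctccgggctcaaTGACAG
Pf4: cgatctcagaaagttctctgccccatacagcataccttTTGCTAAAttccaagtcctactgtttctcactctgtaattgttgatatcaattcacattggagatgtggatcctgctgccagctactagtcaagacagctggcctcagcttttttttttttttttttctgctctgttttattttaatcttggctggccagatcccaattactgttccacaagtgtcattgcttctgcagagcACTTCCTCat
Elane: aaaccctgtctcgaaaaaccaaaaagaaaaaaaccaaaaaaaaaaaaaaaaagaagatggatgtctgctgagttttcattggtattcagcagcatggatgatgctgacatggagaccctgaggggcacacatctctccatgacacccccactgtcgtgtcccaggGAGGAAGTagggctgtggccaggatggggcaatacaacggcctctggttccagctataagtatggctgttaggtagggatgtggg
S100a8: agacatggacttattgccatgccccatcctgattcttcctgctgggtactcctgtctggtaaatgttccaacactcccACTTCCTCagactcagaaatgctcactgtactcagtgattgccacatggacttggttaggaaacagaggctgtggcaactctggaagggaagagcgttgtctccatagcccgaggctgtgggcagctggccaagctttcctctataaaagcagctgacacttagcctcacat
S100a9: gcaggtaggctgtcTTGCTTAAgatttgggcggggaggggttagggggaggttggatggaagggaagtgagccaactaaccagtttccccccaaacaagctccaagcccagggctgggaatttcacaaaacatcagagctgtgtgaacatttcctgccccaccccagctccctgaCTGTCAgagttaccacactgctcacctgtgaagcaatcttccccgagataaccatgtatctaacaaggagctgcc
Ngp: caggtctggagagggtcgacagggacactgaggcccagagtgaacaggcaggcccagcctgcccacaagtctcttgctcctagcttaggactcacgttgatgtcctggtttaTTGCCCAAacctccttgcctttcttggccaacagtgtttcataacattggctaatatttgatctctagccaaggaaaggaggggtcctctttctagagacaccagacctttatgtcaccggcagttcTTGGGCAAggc

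The same motifs were counted in every promoter of the table, on both strands. Windows ran from 250 bases before to 50 after each start. TGACAG was in 19.2% of all 32851 RefSeq promoters, in 16.5% of the 492 of genes higher with MEIS1-WT, in 17.2% of the 482 of genes lower and in 17.4% of those of genes not called. The PBX-MEIS composite, TGACAG directly preceded by TGAT, was in 0.222% of all promoters, 0.407% of the higher, 0.415% of the lower and 0.239% of those not called, which is 2 promoters in each called set. TGATTNAT was in 3.22% of all, 1.83% of the higher, 2.07% of the lower and 1.6% of those not called. GAGGAAGT was in 3.2% of all, 4.07% of the higher, 5.81% of the lower and 2.93% of those not called. TTGCNNAA was in 10.8% of all, 10.2% of the higher, 13.7% of the lower and 8.85% of those not called. The shares were not tested. Of the 36 genes that head the comparison or were fixed for it, 31 matched a promoter. Among the 31, 3 held TGACAG: Trib2, S100a9 and F13a1. GAGGAAGT was in 4 of the 31, TTGCNNAA in 4 and TGATTNAT in 1. A match describes letters in this window, not binding, and sites farther from the start were not searched.

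Several called genes lie next to each other. Among 13956 adjacent pairs of measured genes, placed by the RefSeq order, 84 (0.602%) were called in the same direction, 43 higher and 41 lower. Of the placed genes taken singly, 3.08% were higher and 3.38% lower. These are shares of genes, not of pairs, so they are no background for the 0.602%, and no expected share of pairs was computed. Pairs picked after their values were seen include Dlk1 with Meg3, Ccl3 with Ccl4, Ppbp with Pf4 and Rgs2 with Rgs1 among the higher, and S100a8 with S100a9, Prtn3 with Elane, Mcpt8 with Ctsg, Ccr1 with Ccr2 and Ms4a2 with Ms4a3 among the lower. Some neighbours are recent copies of each other, such as Lyz2 with Lyz1, whose probes can share RNA.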

How the data were processed

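Total RNA of sorted cells was hybridised to 12 one-colour arrays. The authors deposited linear intensity, 1 signal per probe set. The submitters' processing notes name GCOS 1.2, with settings not stated. The authors' scaling was kept, and log2(signal + 16) was computed from the deposited intensity. After 64 control probe sets were left out, the filter kept the 31726 probe sets whose signal exceeded the array's 40th percentile on 3 or more of 12 arrays, and the brightest one stood for a gene with 1 symbol (14005 genes, plus 5985 probe sets without a single symbol). Symbols came from the platform annotation, with 34741 Entrez IDs matched to RefSeq and 0 symbols changed.

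With limma 3.58.1 (R 4.3.3), a model of 4 group means was fitted to the 12 arrays (eBayes with an intensity trend, 8 residual degrees of freedom), with two-sided p-values and Benjamini-Hochberg adjustment over 19990 genes. A rank-based test of 3 arrays against 3 could not pass the threshold, so the tests rest on the pooled spread, and the number of arrays limits precision. The fit was tested on simulated data. The model held no replicate block.

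Named genes were the 15 higher and 15 lower with the largest difference among called genes without overlap, genes fixed by name (Meis1, Trib2, Ccl3, Flt3, Hoxa9, Pbx3; a further one is not reported here) and up to 6 called members of each list, or the 2 with the smallest p where none was called. The 36 lists hold 588 genes, 495 of them tested. The comparison, named genes and lists were chosen with earlier results of these data known. Alternatives are given in the closing section.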

Additional observations from a re-analysis of the deposited data

How the results depend on the processing

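In place of 1050 genes called (485 higher, 565 lower, 169 with a difference of at least 1), 605 passed without an intensity trend (281 higher, 324 lower). With median scaling 221 were higher. A pseudocount of 1 gave 329 and one of 64 gave 64 with a difference of at least 1, as the pseudocount sets the size of dim differences. Leaving out 1 array gave 692 to 893 called, 302 to 447 higher, 371 to 471 lower and 163 to 195 with a difference of at least 1. The other settings kept these counts within 1.5 times, between 853 and 1436 called, among them all probe sets outside the array controls tested singly with no filter (1143). With the replicate number as a block 986 genes passed, 966 of them also without it, but deviations of arrays with the same number correlated at -0.015 to 0.010, so the numbers are not taken to pair the arrays. Of 106 named genes called, 73 kept their call in every setting run. Signs reversed for Plagl1 without shared probe sets (-0.21) and for Pbx3 with median scaling (-0.0174), neither called there. For all of these the cause was not tested beyond the construction of each setting. Dim genes, below about 16 in signal, have compressed differences, and precision is limited by 3 arrays a group.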

Other observations

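Genes outside the lists are given here as single values, picked after those were seen, and stand for no group. Beside Ddx4, a second germ cell gene, the RNA-binding protein Dazl, read 35.9, 32.1 and 41.7 with MEIS1-WT against 9.48, 7.06 and 8.87 with MEIS1-deltaHD (log2 difference 1.10, adjusted p = 0.0011). All 3 MEIS1-WT arrays lay above every control array, which read 20.9, 21.5 and 6.60. Calcrl, the receptor for calcitonin gene-related peptide and adrenomedullin, read 534, 498 and 479 against 129.7, 148 and 198 (1.59), and the adhesion receptor Adgrl4 1131, 1009 and 1094 against 452, 432 and 450.2 (1.25). MEIS1-WT exceeded control on both. The multidrug transporter Abcb1a, found on blood stem cells, read 54.5, 58.5 and 69.4 against 10.4, 16.3 and 5.74 (1.53).

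Single receptors of innate immunity lay on both sides. Toll-like receptor 2 (Tlr2) read 50.03, 68.4 and 76.5 with MEIS1-WT, 184, 194 and 199 with MEIS1-deltaHD and 571, 563 and 593 in control (log2 difference -1.38). The beta-glucan receptor Clec7a differed by -1.40 and the chemokine receptor Ccr1 by -1.38, while the C-type lectin receptors Clec4d and Clec4e were higher with MEIS1-WT, by 0.56 and 0.71. Socs3, the feedback inhibitor of IL-6 and G-CSF receptors, read 96.2, 94.4 and 82.9 against 190.2, 253 and 266, with 522, 612 and 528 in control (-1.22).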
